A study of Drosophila melanogaster with 3 samples.

Results

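Small nucleolar RNA (snoRNA) genes and the genes that hold them in their introns were described here in a ChIP-seq series of the CG1647-GFP fusion protein. The members were the 269 genes of biotype snoRNA on arms 2L, 2R, 3L, 3R, 4 and X of the Drosophila melanogaster annotation (Ensembl release 115 on dm6), and the 95 host genes whose body held at least 1 of them on the same strand. Together they made 364 of the 18164 annotated genes on these 6 arms, transposable elements left out. The rule for members used only annotation and no measured value, although earlier results of these data were known when it was chosen. Of the 269 snoRNA genes, 235 had 1 host, 12 had 2 hosts and 22 had none.

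Chromatin came from whole embryos of mixed sex, collected at 0 to 24 h, of a stable transgenic line in which GFP is joined to the C-terminal end of CG1647, and the fusion was precipitated with an antibody against GFP. There was 1 group with 3 biological replicates, and no second genotype or treatment was analysed here, so members are compared with other genes and replicates with each other. Every embryonic tissue was mixed in each sample, peak lists hold no RNA level from which a tissue or cell type could be checked, and the level of the fusion relative to the native protein is not given in the sources used here. A peak's summit within 500 bp of a snoRNA gene, or of the 5′ end of any transcript (start site) of a host, was counted.

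SnoRNAs are short noncoding RNAs that guide chemical modification of other RNAs, chiefly ribosomal RNA. Box C/D snoRNAs guide 2′-O-methylation and carry a C box near the 5′ end and a D box near the 3′ end. Box H/ACA snoRNAs guide the change of uridine to pseudouridine and end shortly after the letters ACA. Small Cajal body RNAs (scaRNAs) do the same on spliceosomal RNAs, and U3 takes part in cutting the ribosomal RNA precursor. Most fly snoRNAs are cut out of spliced introns, so the promoter that drives them is the promoter of their host, whereas some, U3 among them, are transcribed from promoters of their own. Many hosts encode ribosomal proteins, and the Uhg genes are noncoding hosts whose known use is to carry snoRNAs.

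By symbol, the 269 genes were 114 of box H/ACA type, 91 of box C/D type, 16 scaRNAs, 13 other U-numbered genes, 3 U3 genes and 32 others. Their median length was 134 bases, and it was 140 bases for box H/ACA and 79 bases for box C/D genes. The letters TGATGA in the first 20 bases together with CTGA in the last 20 were present in 62 of 91 box C/D genes and 12 of 13 other U-numbered genes. The letters ACA stood exactly 3 bases from the 3′ end in 106 of 114 box H/ACA genes (93%). In 227 cases the snoRNA lay within an intron of its host, in 17 within an exon and in 3 across an exon edge.

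Sequences are shown for 4 snoRNAs whose body lay within 500 bp of a retained summit at their host's start site, as read from the RefSeq release 6 genome (dm6), 5′ to 3′ on the gene's strand. Me28S-A774b lies at chr3L:13023580-13023652 (+) in an intron of RpS12, Or-CD11a at chr3L:3222475-3222541 (-) across an exon edge of RpL28, Psi18S-1275 at chr3R:9778398-9778537 (+) in an intron of RpS29, and Psi18S-920 at chr3L:11822984-11823124 (+) in an intron of RpL10Ab. Capitals mark the C and D box letters in the first pair and the ACA letters in the second pair.
Me28S-A774b: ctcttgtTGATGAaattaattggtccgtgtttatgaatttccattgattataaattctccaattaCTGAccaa
Or-CD11a: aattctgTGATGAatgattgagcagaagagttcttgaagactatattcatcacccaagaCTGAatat
Psi18S-1275: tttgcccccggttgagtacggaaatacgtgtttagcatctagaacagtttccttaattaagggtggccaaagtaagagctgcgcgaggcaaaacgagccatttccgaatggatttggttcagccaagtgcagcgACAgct
Psi18S-920: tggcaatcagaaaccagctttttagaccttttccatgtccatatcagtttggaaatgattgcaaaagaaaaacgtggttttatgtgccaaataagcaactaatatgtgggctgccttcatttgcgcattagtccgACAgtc

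Promoters are shown for 6 bound hosts, in the same build and orientation. Each stretch runs from 130 bases before to 20 after the start site nearest the summit. RpS12 (chr3L:13023222-13023371, +), RpL28 (chr3L:3222941-3223090, -) and RpS7 (chr3R:30208929-30209078, -) hold the DNA replication-related element (DRE), the palindrome TATCGATA bound by the factor DREF. RpL23A (chr3L:1668635-1668784, -) and RpS4 (chr3L:13041671-13041820, +) hold the letters CTTTTC or CTTTTT near the start site, used here for the polypyrimidine (TCT) initiator of translation genes. Stt3A (chrX:21053918-21054067, -), the host with the highest signal, holds none of the searched motifs in the printed stretch, although an E-box (CAGCTG) lies in its longer window searched below. The summit of Stt3A is 382 bp upstream of the start site, outside both, so neither shows the letters at the summit. The stretch of RpS4 is at another start site than the 1 used for that search. The 6 hosts are examples, and shares of promoters with each motif are given below. Other bound hosts, such as RpL14, RpS20 and RpL30, hold none of the searched motifs in the same stretch of their promoters. Capitals mark the motif letters.
RpS12: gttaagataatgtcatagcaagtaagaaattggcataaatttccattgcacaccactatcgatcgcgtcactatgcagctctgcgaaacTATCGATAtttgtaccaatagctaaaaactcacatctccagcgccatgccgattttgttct
RpL28: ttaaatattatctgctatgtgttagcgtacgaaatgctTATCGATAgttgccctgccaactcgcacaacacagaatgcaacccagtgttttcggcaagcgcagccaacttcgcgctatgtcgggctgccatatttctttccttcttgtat
RpS7: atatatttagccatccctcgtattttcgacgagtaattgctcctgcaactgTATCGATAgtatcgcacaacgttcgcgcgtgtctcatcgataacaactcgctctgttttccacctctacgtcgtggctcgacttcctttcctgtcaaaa
RpL23A: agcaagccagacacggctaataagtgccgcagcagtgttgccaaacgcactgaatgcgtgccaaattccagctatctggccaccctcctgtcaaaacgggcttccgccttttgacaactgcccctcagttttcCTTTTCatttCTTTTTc
RpS4: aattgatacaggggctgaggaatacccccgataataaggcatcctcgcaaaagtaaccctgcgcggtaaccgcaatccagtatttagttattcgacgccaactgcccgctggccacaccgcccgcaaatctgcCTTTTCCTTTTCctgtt
Stt3A: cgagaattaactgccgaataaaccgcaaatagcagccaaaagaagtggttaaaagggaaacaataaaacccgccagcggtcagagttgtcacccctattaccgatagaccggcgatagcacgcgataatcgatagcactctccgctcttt

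The authors' retained list held 3123 peaks, with signal values between 126 and 2899 and a median of 189. The candidate list from the pooled replicates held 19204 peaks, and the replicates' own candidate lists held 30000, 17977 and 30000 peaks. Every retained peak was among the 3123 highest of the pooled list, so a peak has the same rank in both. Signal is the authors' value for the peak, and it is used here only to rank peaks within a list. Candidate lists include weak peaks that failed the authors' replicate threshold. Sequencing depth is unknown, and the 95% intervals (Clopper-Pearson) cover counting error only, since members can share a peak.

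A retained summit lay at a start site of 47 of the 95 hosts (49.5%, interval 39.1 to 59.9%), against 2266 of 13945 protein-coding genes (16.2%). In each replicate's own 3123 highest peaks, 43, 42 and 50 hosts had one, or 47.4 ± 4.59% of hosts against 15.7 ± 0.991% of protein-coding genes (SD, n = 3 replicates). The replicates differed by at most 8 hosts, and each gave hosts a share above that of coding genes. With the pooled candidates, the count was 74 of 95 hosts (77.9%, interval 68.2 to 85.8%) against 44% of protein-coding genes. Of the 48 hosts with no retained summit, 27 had a pooled candidate and 21 had neither.

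Ribosomal protein hosts had the largest share of the 4 classes of host. Among the 29 ribosomal protein hosts, 21 had a retained summit (72.4%, interval 52.8 to 87.3%), beside 61.3% of all 93 cytoplasmic ribosomal protein genes. The 64 ribosomal protein genes that hold no snoRNA gave 36 (56.2%, interval 43.3 to 68.6%), an interval that overlaps that of the hosts, and the difference was not tested. Hosts encoding other proteins had a summit in 23 of 55 cases (41.8%, interval 28.7 to 55.9%), against 2186 of 13797 other protein-coding genes without a snoRNA (15.8%). Those 2 intervals do not overlap, and the replicates gave 38.2, 36.4 and 41.8% of these hosts.

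Among the pooled candidates, 28 of 29 ribosomal protein hosts had a summit, beside 87.1% of all ribosomal protein genes. RpS6, of the small subunit, was the 1 ribosomal protein host with no candidate at its start site. Other coding hosts had a candidate in 41 of 55 cases (74.5%). Of the Uhg genes 3 of 7 had a retained summit and of the 4 other noncoding hosts none, against 4.6% of the 3261 annotated ncRNA genes. The Uhg count varied over replicates, with 1, 3 and 4 of the 7 genes.

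**Figure D1:**
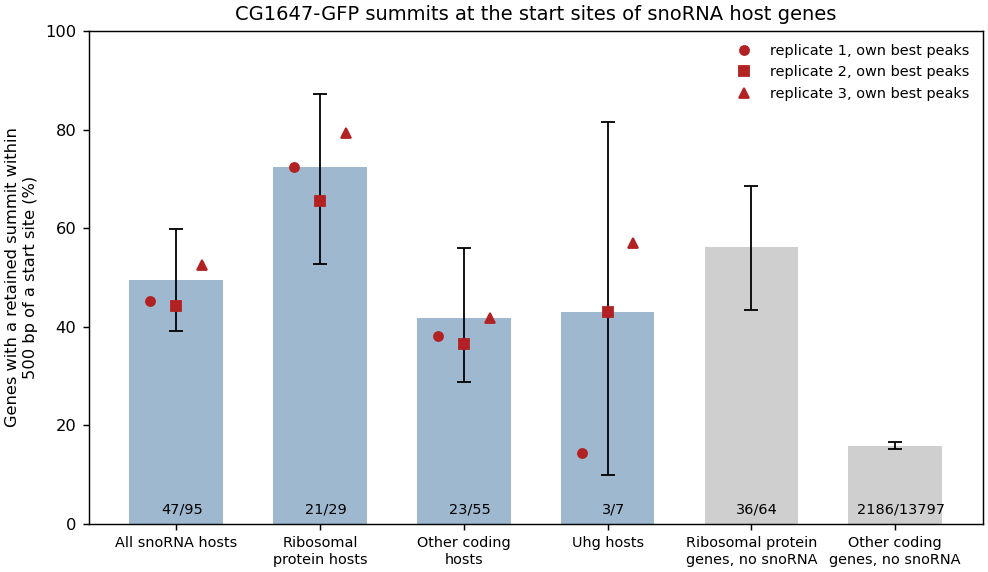
Share of genes with a summit within 500 bp of a start site, in percent (y axis), for all hosts and 3 classes of host (blue) and for ribosomal protein and other coding genes that hold no snoRNA (grey). Bars are the retained list with exact 95% intervals, the numbers in them are genes with a summit over genes in all, and red symbols are the 3 replicates' own 3123 highest peaks; every host symbol except that of Uhg genes in replicate 1 lies above the 15.8% of other coding genes.

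Summits at hosts sat just upstream of the start site. Over the 47 bound hosts the best summit had a median position 64 bp upstream, 40 of them (85.1%) were upstream, and 29 lay within 100 bp. The other 2222 bound protein-coding genes had a median of 115 bp upstream, and 87.1% were upstream. All 21 bound ribosomal protein hosts had their summit within 150 bp, between 132 bp upstream and 24 bp downstream. Other coding hosts were spread more widely, with 13 of 23 within 150 bp and positions between 460 bp upstream and 479 bp downstream. The hosts nearest the 500 bp limit were Stt3A at 382 bp, skd at 460 bp and pAbp at 479 bp inside it, and CG42564 at 523 bp, tou at 641 bp and CG3902 at 750 bp outside it.

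The median rank of the best peak was 1256 over bound hosts and 1405 over the other bound protein-coding genes. It was 821 for ribosomal protein hosts, 1338 for other coding hosts and 2338 for Uhg hosts. Of the 47 bound hosts, 33 were also bound in the own 3123 highest peaks of all 3 replicates, 10 in 2, and 4 in 1. By class these 33 were 18 of 21 ribosomal protein hosts, 14 of 23 other coding hosts and 1 of 3 Uhg hosts. Conversely, 10 hosts without a retained summit were bound in at least 1 replicate's highest peaks.

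Large subunit proteins led the ribosomal protein hosts. RpL23A, which holds 4 snoRNAs, had a signal of 622.0 and rank 112, with its summit at chr3L:1668763, 109 bp upstream, and its peak had ranks 122, 168 and 79 in replicates 1, 2 and 3. RpL28, with 5 snoRNAs, had a signal of 430.2 and rank 284, 72 bp upstream, with replicate ranks 328, 425 and 204. RpL14 had a signal of 424.1 and rank 290, 60 bp upstream, with replicate ranks 161, 579 and 255. All 3 were high in every replicate, and at RpL28 and RpL14 the summit was also within 500 bp of a start site of another gene, eIF1 and Nelf-E. RpL30 had a signal of 334.2 and rank 496, with replicate ranks 290, 1507 and 330. RpL13A had a signal of 316.1 and rank 560, with replicate ranks 269, 2043 and 294. For RpL30, RpL13A, RpL27A (751, 2891 and 877), RpL4 (971, 2899 and 852) and RpL3 (773, 4976 and 563), replicate 2 gave the weakest rank.

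RpS20, the small subunit host with the highest signal, had a signal of 410.2 and rank 314, 132 bp upstream and shared with CG17271, with replicate ranks 502, 199 and 392. RpS29 had a signal of 328.1 and rank 515, 24 bp downstream, with replicate ranks 497, 663 and 415. RpS12 had a signal of 285.3 and rank 709 with the summit 1 bp upstream, in the DRE-holding promoter printed above, and replicate ranks 568, 1146 and 629. These peaks were in the highest 3123 of each replicate, and so were those of RpS16 (rank 612), RpL11 (731), RpS4 (821), RpL22 (932), RpL17 (1176) and RpS3A (1369). RpS5a, the ribosomal protein gene with the most snoRNAs at 14, had a signal of 199.3 and rank 1433, 78 bp upstream, with replicate ranks 2056, 1327 and 1255. RpS7, with 7 snoRNAs, had a signal of 156.8 and rank 2183, with replicate ranks 1890, 2509 and 1316. RpL10Ab was the lowest ranked bound ribosomal protein host, with a signal of 141.1, rank 2586 and replicate ranks 3339, 2497 and 4644, so only replicate 2 placed it in its 3123 highest. RpL3 was past that limit in replicate 2, and sta, the gene of small subunit protein SA, was past it there too with rank 3400.

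**Figure D2:**
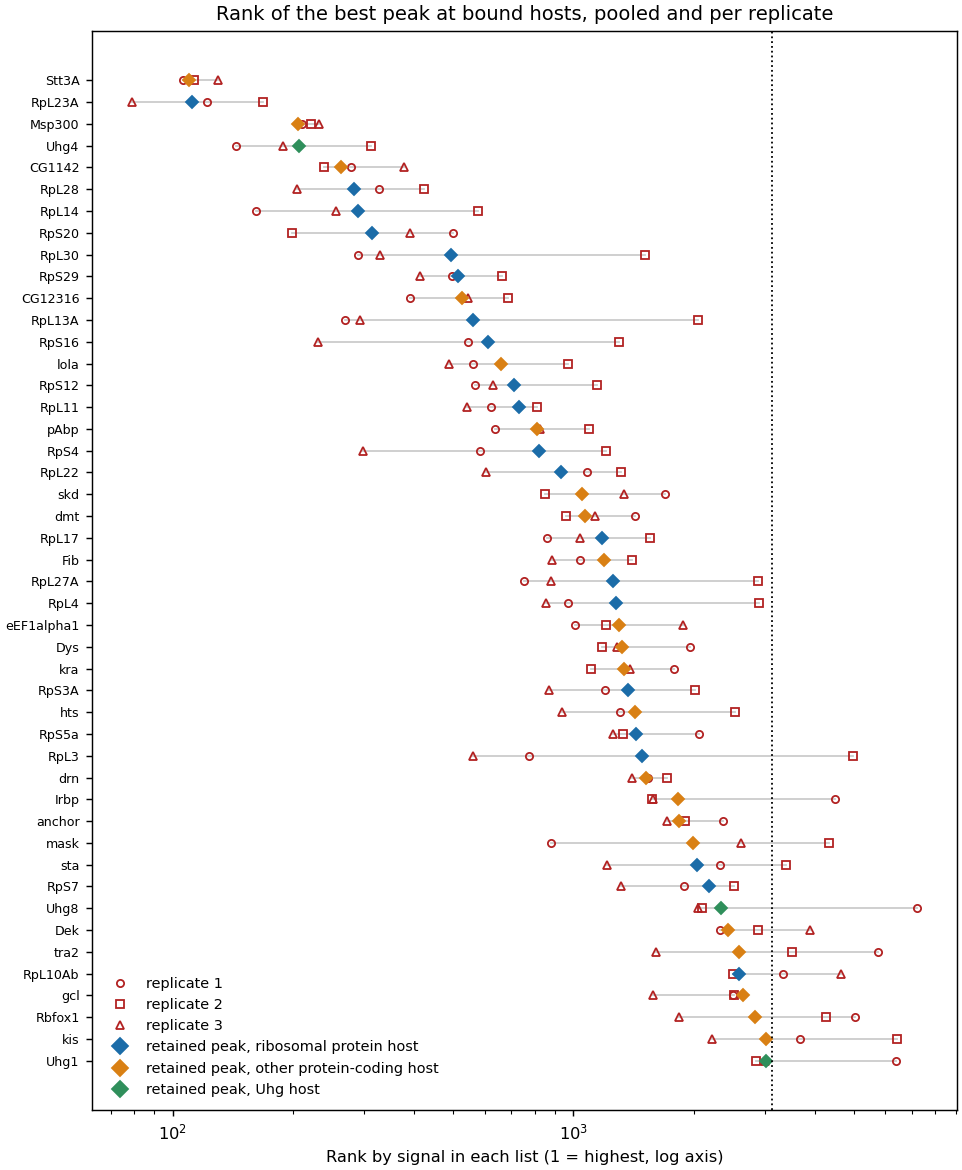
Rank by signal (x axis, log scale, 1 is the highest) of the best retained peak at each of 46 of the 47 bound hosts, 1 row per host, with filled diamonds for the retained list coloured by host class and open red symbols for the same peak in each replicate's own list. The dotted line marks rank 3123, the length of the retained list; Stt3A, RpL23A, Msp300 and Uhg4 sit left of rank 350 in every list, while Uhg8 and Uhg1 pass the line in replicate 1.

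The other 23 bound coding hosts have varied products. Stt3A, a catalytic subunit of the oligosaccharyltransferase that adds sugar chains to secreted proteins, ranked highest of all hosts with a signal of 641.5 and rank 110. Its summit at chrX:21054319 was 382 bp upstream and shared with the gene bves, and its replicate ranks were 106, 113 and 130. Msp300, a giant protein that links nuclei to the cytoskeleton, had a signal of 494.4 and rank 205, 328 bp upstream, with replicate ranks 210, 222 and 232. CG1142 had a signal of 447.1 and rank 263, 134 bp upstream, with replicate ranks 279, 239 and 378. These 3 varied little over the replicates. CG12316 followed with a signal of 325.3 and rank 526, 77 bp downstream, and lola, a family of zinc finger transcription factors, with 293.7 and rank 659.

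Fib, the methyltransferase fibrillarin that box C/D snoRNAs guide, holds 1 snoRNA and had a signal of 219.8 and rank 1190, 55 bp upstream, with replicate ranks 1038, 1396 and 886. Its summit was shared with CG3085. The poly(A)-binding protein gene pAbp had a signal of 265.1 and rank 813, at 479 bp downstream of a start site and so near the limit, and only 1 replicate's own summit fell within 500 bp although its peak ranked 638, 1092 and 823. The translation elongation factor gene eEF1alpha1 had a signal of 208.6 and rank 1302. The peak of kra, a translation regulator that holds 8 snoRNAs, had a signal of 206.6 and rank 1338, with replicate ranks 1786, 1109 and 1381 and a summit shared with SecS. Others among the 30 highest were skd (Mediator subunit, rank 1050), dmt (1070) and Dys (dystrophin, 1323), and the remaining bound hosts of this class had ranks down to 3022. At 22 of the 47 bound hosts the best summit was also within 500 bp of a start site of another gene, and at 19 that was a protein-coding gene of the opposite strand, so the peak cannot be assigned to the host alone.

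Noncoding Uhg hosts hold 48 of the links between snoRNAs and hosts. Uhg4, with 7 snoRNAs, had a signal of 493.6 and rank 207, 61 bp upstream, with replicate ranks 144, 312 and 188 and no other gene start within 500 bp of the summit. Uhg8, with 3 snoRNAs, had a signal of 151.2 and rank 2338, 354 bp upstream, with replicate ranks 7209, 2090 and 2042. The summit of Uhg8 was also within 500 bp of a start site of CG5199. Uhg1, with 16 snoRNAs, had a signal of 128.7 and rank 3023, close to the end of the retained list, with replicate ranks 6388, 2851 and 3002. Uhg4 was thus strong in every replicate, while Uhg8 and Uhg1 were weak in replicate 1. Uhg3 and Uhg2 had only pooled candidates, with signals of 101.2 and 80.32 and ranks 4491 and 7015. Uhg5, with 11 snoRNAs, and Uhg7, with 4, had no candidate within 500 bp of a start site. The 4 snoRNAs of Uhg7 (Me28S-A2634a, Me28S-A2634b, Me28S-A2634c and Or-CD15) are the same 4 that lie in RpL23A, and they are counted below as held by a bound host through RpL23A.

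Holding many snoRNAs did not go with a summit in a regular order. A retained summit was present at 11 of 21 hosts of 4 or more snoRNAs (52.4%, interval 29.8 to 74.3%), 11 of 18 hosts of 2 to 3 (61.1%, interval 35.7 to 82.7%) and 25 of 56 hosts of 1 (44.6%, interval 31.3 to 58.5%), and these intervals overlap. Arpc2, an Arp2/3 complex subunit gene that holds the most snoRNAs at 17, had only a pooled candidate with a signal of 68.77 and rank 9923, and replicate ranks 27275, 6076 and 12693. The gene dom, a chromatin remodelling ATPase with 15 snoRNAs, had a candidate of 97.99 and rank 4759, with replicate ranks 2799, 13058 and 3631. Both were low and uneven over the replicates. Sf3b3, a splicing factor subunit with 9 snoRNAs, had 108.9 and rank 3972, while Nop60B, the pseudouridine synthase of box H/ACA particles with 7 snoRNAs, had 69.34 and rank 9747 and no peak there in replicate 1. CG10576, with 5 snoRNAs, had a candidate of rank 16436, and Hrb98DE, an hnRNP protein gene with 7, and lncRNA:CR45184, with 5 that are among the 9 of Sf3b3, had none.

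**Figure D3:**
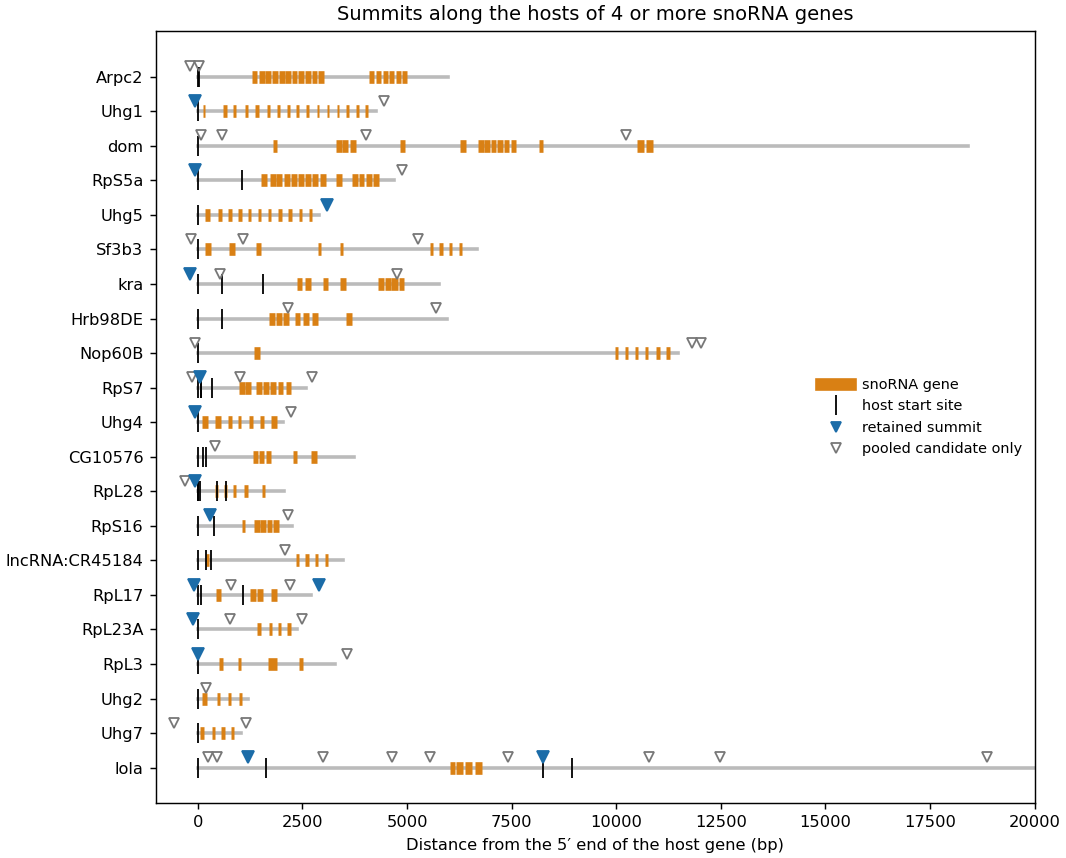
Summits along the 21 hosts of 4 or more snoRNA genes, in bp from the host's 5′ end (x axis), with hosts ordered by the number of snoRNAs from the top. Orange boxes are snoRNA genes, black ticks start sites, filled blue triangles retained summits and open grey triangles pooled candidates; the axis ends at 20000 bp, short of the end of lola. At RpS5a, Uhg1, Uhg4, RpL28, RpL23A and RpL3 the retained summit is at the start site and the snoRNAs lie downstream of it.

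The hosts with only a candidate that came closest to the retained list were SC35, an SR splicing factor gene, with a signal of 122.7 and rank 3277, RpL36A with rank 3356, RpL7A with 3572, Tudor-SN with 3614 and lds with 3852. SC35 had replicate ranks 7629, 1640 and 3021, so that 2 replicates placed it in their 3123 highest. RpL36A had ranks 2129, 8847 and 2379, with replicate 2 the weak one. CG3902 with rank 4592 lay between Uhg3 and dom, and RpL5 with rank 5372 lay after dom.

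Seen from the snoRNAs, 129 of the 247 with a host (52.2%, interval 45.8 to 58.6%) were held by a gene with a retained summit at its start site, 86 by a gene with only a pooled candidate and 32 by a gene with neither. By type, these were 42 of 86 box C/D genes, 55 of 105 box H/ACA genes, 8 of 14 scaRNAs, 11 of 13 other U-numbered genes and 13 of 29 others. The share was 48.8% for box C/D (interval 37.9 to 59.9%) and 52.4% for box H/ACA (interval 42.4 to 62.2%), and the intervals overlap. SnoRNAs of 1 host share its promoter and so are not independent. Of the 13 U-numbered genes 9 lie in Uhg1, and RpS5a alone accounts for 14 snoRNAs. The intervals in this paragraph take each snoRNA as independent and so are too narrow.

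Few snoRNA genes had a retained summit near their own sequence. The count was 11 of 269 (4.09%, interval 2.06 to 7.2%), at 10 peaks, and it was 14, 12 and 13 with the replicates' own highest peaks. It was 7 without replicate 3, 5 within 200 bp and 45 within 1000 bp. Windows of the median snoRNA length had a retained summit as near in 2.54% of positions on the 6 arms and in 4.94% of positions inside the host genes. Windows inside hosts were pooled over all host bodies, so long hosts weigh more than their snoRNAs do. Dys has 136204 bp and 1 snoRNA, whereas RpS5a has 4677 bp and 14. The window share is thus not matched to the hosts of the snoRNAs, and no conclusion is drawn from its closeness to 4.09%. The shares of tRNA and snRNA genes were 10 of 290 (3.45%) and 8 of 32 (25%). By type the count was 5 of 91 box C/D genes, 4 of 114 box H/ACA genes, 1 of 16 scaRNAs, 1 of 32 others and none of the 3 U3 or 13 other U-numbered genes. The median distance of a snoRNA gene to the nearest retained summit was 3309 bp. Just inside the limit was Or-CD11a at 491 bp, and just outside it Or-ACA6 at 505 bp.

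Of the 11, 7 lay beside a summit at their host's start site. They were Psi28S-2949 (160 bp from the summit) and Or-aca5 (473 bp) in Uhg4, Me28S-G3081a in Uhg1 (185 bp), Psi18S-920 in RpL10Ab (197 bp), Me28S-A774b in RpS12 (229 bp), Psi18S-1275 in RpS29 (332 bp) and Or-CD11a in RpL28 (491 bp). In each the summit was upstream of the snoRNA, including the 4 printed above, and no retained summit fell inside any of the 269 snoRNA genes. The 7 were among the 33 snoRNAs that start within 500 bp of a host start site (21.2%). None of the 51 snoRNAs between 500 and 1000 bp from it, none of the 73 between 1000 and 2000 bp and 1 of the 90 farther away had a retained summit within 500 bp. In hosts with a retained summit at the start site, 122 of the 129 snoRNAs had none within 500 bp of themselves. A snoRNA more than 1000 bp from a start site cannot lie within 500 bp of a summit counted at that start site. These counts by distance are thus in part set by the limits used.

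The other 4 were not at a host's start site. Or-CD4, the last snoRNA of Uhg5, had a summit 360 bp downstream, with a signal of 204.0, rank 1365 and replicate ranks 2227, 1537 and 1184, and this summit was 3089 bp downstream of the Uhg5 start site. Or-CD13, which has no host, had a summit 423 bp downstream, with a signal of 276.9, rank 744 and replicate ranks 708, 845 and 884. The gene snoRNA:185, also without a host, had a summit 20 bp upstream, with a signal of 202.6, rank 1389 and replicate ranks 1411, 3627 and 666. That summit was also within 500 bp of the start of tRNA:Glu-TTC-1-5. For scaRNA:MeU1:95C-A24, which guides modification of the U1 spliceosomal RNA by its name, the summit was 471 bp downstream, with a signal of 161.2, rank 2078 and replicate ranks 1275, 3547 and 2535, and it was within 500 bp of the start of the U1 gene snRNA:U1:21D. Or-CD13 and Or-CD4 were thus in the highest 3123 of each replicate, and the others fell outside it in replicate 2.

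**Figure D4:**
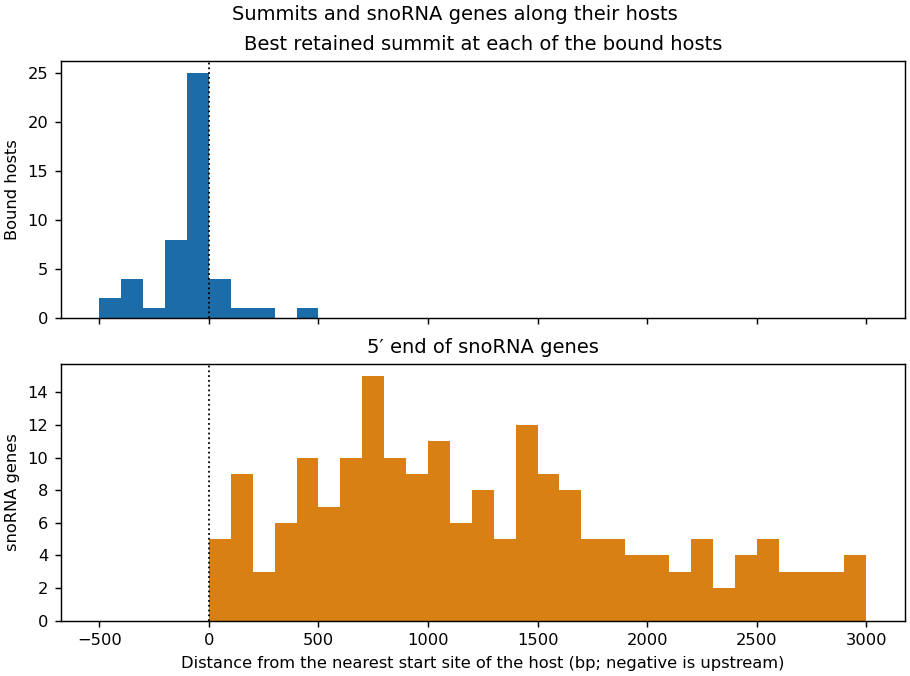
Top, number of bound hosts by distance of the best retained summit from the nearest host start site; bottom, number of snoRNA genes by distance of their 5′ end from the nearest upstream start site of their host, both in bp on 1 axis in bins of 100 bp, negative upstream. Summits gather within 100 bp of the start site. Distances of snoRNAs are taken from an upstream start site and so are never negative. Their median is 1465 bp, and 54 of 247 snoRNAs beyond 3000 bp are not drawn.

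Weaker candidates were nearer to more snoRNA genes. A pooled summit lay within 500 bp of 83 of 269 (30.9%, interval 25.4 to 36.7%). The share was 14.5% for windows of the same length on the arms and 24.2% inside the host genes, where long hosts again weigh more. The count was 36 within 200 bp and 151 within 1000 bp. Of the 83, 15 were at a host's start site, 53 were in a host but not at its start site and 15 had no host, and in 11 the summit lay inside the snoRNA gene. The highest ranked of these 11 were Psi28S-3385a in kra (rank 5953), Me18S-G1358c in RpL15 (6823) and Me18S-A1576 in Uhg2 (7015), all beyond the retained list; these 3 were chosen after their values were seen. The 22 snoRNA genes without a host had a candidate in 15 cases (68.2%, interval 45.1 to 86.1%), against 16 of 33 (48.5%) of those within 500 bp of a host's start site and 19 of 90 (21.1%) of those more than 2000 bp away. The U3 genes, which have their own promoters, had weak candidates or none, with U3:54Ab at rank 13992 and 38 bp away, U3:9B at rank 18781 inside the gene and U3:54Aa with none closer than 2134 bp.

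Away from the start sites, 18 retained summits lay inside the bodies of 7 hosts. Dys had 5, kis and tou 3 each, hts, drn and Rbfox1 2 each and Stt3A 1, and most of these are long genes with several start sites. Bodies of ribosomal protein and Uhg hosts held none beyond 500 bp of a start site. These bodies are short: the longest were RpS5a at 4677 bp and Uhg1 at 4248 bp, beside 136204 bp for Dys. The same count was not made over all genes or per base, so it shows no difference between classes.

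Promoter letters were searched from 250 bases before to 50 after the start of each gene's main transcript, on both strands, except the initiator, which was searched on the gene's strand within 50 bases of the start. The DRE palindrome TATCGATA occurred in 20 of 95 hosts (21.1%), against 8.94% of 13944 protein-coding promoters. CTTTTC or CTTTTT occurred in 24 hosts (25.3%) against 10.5%, the E-box CAGCTG in 11.6% against 17.9%, and TATAAA in 49.5% against 45.3%. Matches of different motifs can share letters, as when the DRE runs into a TATAAA. Hosts with a retained summit held the DRE in 8 of 47 cases (17%), against 12 of 48 hosts without one (25%), and the initiator letters in 29.8% against 20.8%. At main start sites the DRE was thus no more frequent in the hosts with a summit, and the difference was not tested. At some bound hosts, such as RpS4, Rbfox1 and Msp300, the main start site is not the 1 nearest the summit. Rbfox1 was counted without the DRE although the stretch at its bound start site holds it. These shares thus do not describe the bound start sites alone. Ribosomal protein hosts held the initiator letters in 37.9% of cases, against 60.9% of ribosomal protein genes without a snoRNA, and the DRE in 27.6% against 31.2%. Other pyrimidine runs, such as CTTTCC in the printed stretches of RpL28 and RpS7, were not searched. The initiator shares thus count only CTTTTC and CTTTTT, and the difference was not tested.

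The protein partners of snoRNAs were read from a list of 23 genes for the particles and their making. Of the 23, 8 had a retained summit at a start site (34.8%) and 18 a pooled candidate (78.3%), beside 16.2% and 44% of protein-coding genes. In box C/D particles fibrillarin (Fib, above) had a retained summit, Nop56 and hoip a candidate and nop5 none. In box H/ACA particles NHP2 had a signal of 184.8, rank 1633 and replicate ranks 4271, 1429 and 898, Nop60B and Nop10 had a candidate and Gar1 none. Of the core proteins, 1 in each particle thus had a retained summit. The assembly ATPases pont (161.2, rank 2079) and rept (137.2, rank 2729) had a retained summit. Their replicate ranks were 4755, 1745 and 2155 for pont and 3314, 2948 and 2976 for rept. Both were thus outside the 3123 highest of replicate 1. Nopp140, a nucleolar and Cajal body protein, had a retained summit with a signal of 216.9, rank 1227 and replicate ranks 1299, 1456 and 1195.

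CG13097 had the highest signal of the list, 336.5, at rank 492 and with replicate ranks 792, 351 and 631. The nuclear exosome enzyme Rrp6, which trims RNA 3′ ends, had 152.6 and rank 2302, with replicate ranks 5665, 1493 and 3996. Only replicate 2 thus placed Rrp6 in its 3123 highest. Pbp95, a subunit of the factor for snRNA-type promoters, had 174.3 and rank 1815 at 491 bp upstream, with replicate ranks 2194, 1784 and 1862. Smn, ldbr, Tgs1, wcd, Pbp49 and Pbp45 had a candidate, and CG10341, CG10055 and coil had none. The gene of the fusion protein itself, CG1647, had a summit 486 bp upstream with a signal of 207.3, rank 1327 and replicate ranks 2254, 731 and 2003.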

How the data were processed

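ChIP-seq peaks of CG1647-GFP were analysed from 3 replicates of 1 group, mapped from the labels. The deposited signal values and the deposited −log10 q-values were made by the authors' peak caller; per the labels, candidate lists were made for the irreproducible discovery rate against a control, and the retained list passed its threshold. No source used here names the aligner, the caller or their versions. Depth is unknown. The labels call the replicates biological. Lists on dm3 were not used.

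Summits were set against the Ensembl release 115 annotation of dm6 and sequences read from RefSeq release 6, with Python 3.11.15, pandas 2.3.3, numpy 2.4.6 and scipy 1.17.1; counting was tested on simulated data. No test was run, since there is 1 group: counts stand beside the same count over all genes or windows. Ranks are by signal, and for each replicate those of the overlapping peak with the highest signal. Replicate lists were compared at 3123 peaks, and ranks in lists of different lengths are descriptions.

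Members and lists were chosen with earlier results of these data known. Named were snoRNAs with a retained summit, the 30 bound hosts with the highest signal, Uhg and U3 genes, the 10 hosts without a retained summit with the most snoRNAs, the 10 with only a candidate ranked highest, bound partner genes and CG1647, except 1 host that is not reported here by name; others are named for the 500 bp limit, for replicate differences, among partners or as bodies with summits, after their values were seen. Alternatives were other distances, midpoints, the 1561 highest retained peaks, leaving out each replicate, and other host definitions.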

Additional observations from a re-analysis of the deposited data

How the results depend on the processing

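Of 41 alternative settings of the 5 counts, 36 stayed within 1.5 times the count reported. The snoRNA genes with a retained summit were 11 at 500 bp, 5 at 200 bp and 45 at 1000 bp; of the 45, 35 were within 1000 bp of a summit at a host's start site. With the pooled candidates they were 83 at 500 bp, 36 at 200 bp and 151 at 1000 bp. Leaving out each replicate in turn, and keeping retained peaks found in both others, left 7 to 9 snoRNA genes (7 without replicate 3), 36 to 39 hosts of the 47 (against 11 to 12.3% of protein-coding genes), and 97 to 117 of the 129 snoRNAs with a bound host. Leaving out a replicate in this way only removes peaks from a list made with all 3, so these counts could fall but not rise. With 200 bp, 39 hosts and 11.9% of protein-coding genes were bound, and with the 1561 highest retained peaks 34 hosts and 8.92%. The hosts stayed at 47 with peak midpoints, with any overlap of a gene counted as a host, and with start sites only of transcripts that hold the snoRNA. Midpoints lie at or close to the summits of these peaks, and any overlap gave the same 95 hosts. Both settings could thus hardly move the counts, and they are among the 36 that stayed. No paired analysis was possible because there is 1 group.

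Lists hold no read counts, so a site without a candidate was not detected in these lists and is not shown to be unbound. The candidate lists of replicates 1 and 3 both end at 30000 peaks and that of replicate 2 at 17977. The antibody recognises GFP, and no native CG1647 was measured. Nearby genes on opposite strands share peaks at 19 of the bound hosts. Whole embryos mix tissues, so a tissue in which a host is bound cannot be told from these lists.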
